A study of Mus musculus with 4 samples.

Results

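The BCL2 family genes described here are the survival genes Bcl2, Bcl2l1, Bcl2l2 and Mcl1, the pore formers Bax and Bak1, and the BH3-only genes Bid, Bad, Bcl2l11 and Pmaip1. They were taken by name from the deposited comparison table of 10716 genes, which held 9 of the 10. Bcl2 was not in the table, which lists only genes above 1 CPM (counts brought to the same total in each library) in at least 2 libraries, so no value is given for it. The RNA came from fetal liver erythroid cells of C57BL/6 mice on embryonic day 14.5, which in every group were sorted as positive for a yellow fluorescent protein reported from the Rosa26 locus (R26eYFP). In the 2 libraries labelled knockout (replicates 1 and 2, called KO1 and KO2 here), Cre recombinase expressed from the erythropoietin receptor gene (Epor) acts on Adar, which encodes the RNA-editing enzyme ADAR1, and their genotype field reads Epor-Adar / +. That field does not say whether 1 or both alleles were deleted. The 2 controls (replicates 3 and 8, called C3 and C8) are labelled wild type, and the labels do not say which Cre or reporter alleles they carry, nor whether each library came from a separate embryo. The p-values therefore measure only the spread between these 4 libraries, which may be technical.

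Total counts ran from 28356401 to 44016809 per library. Adar itself had 67.1 and 102 CPM in KO1 and KO2 and 50.9 and 46.9 CPM in C3 and C8, a count over the whole gene that does not test a partial deletion. Counts of 4 Y-linked genes contradicted the labelled sex in 3 of 4 libraries. Each group had a library labelled female and a library labelled male, so by these counts sex was not balanced between the groups. The part of sex in the results was not tested. All 9 erythroid markers were in the table, with a summed level of 65335 to 98854 CPM per library, and 0 of 6 lymphoid markers were. KO1 stood apart. For 82.6% of all genes its distance from the mean of the controls was larger than that of KO2, and the number of genes called changed from 11 to 143 without KO1 and to 3492 without KO2.

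Proteins of the BCL2 family decide whether the outer mitochondrial membrane stays intact. Bax and Bak form pores in it that release cytochrome c and start the caspase cascade, BCL2, BCL-xL (from Bcl2l1), BCL-W (from Bcl2l2) and MCL1 hold the pore formers in check, and BH3-only proteins such as BID, BAD, BIM (from Bcl2l11) and NOXA (from Pmaip1) relay stress signals by binding the others through a short helix, the BH3 segment. In red cell formation BCL-xL is known for keeping maturing erythroblasts alive downstream of the erythropoietin receptor, STAT5 and GATA1. The comparison asks whether transcripts of these opposing groups differ when Adar is targeted in erythroid cells.

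The BH3 segment is the stretch that the groups have in common, and its coding sequence is shown for 8 members to make the shared part visible. A search of the translated coding sequence for leucine, any 3 residues, glycine and aspartate found 1 place each in Bcl2l1, Mcl1, Bax, Bak1, Bid and Bcl2l11, and 2 in Pmaip1. In Bcl2l2 and Bad it found none, and a wider search (leucine or methionine, any 3 residues, glycine or serine, aspartate) found 1 place in each. Over 21463 mouse genes with a complete coding transcript, the narrow search matched in 12.7% and the wider one in 29.1%, so a match alone marks no family member. Capitals mark the 6 matched codons, and small letters the 2 codons on either side.
Bcl2l1: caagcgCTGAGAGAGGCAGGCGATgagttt
Bcl2l2: caagccATGCGGGCTGCTGGAGACgagttt
Mcl1: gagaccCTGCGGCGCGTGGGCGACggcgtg
Bax: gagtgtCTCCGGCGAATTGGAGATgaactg
Bak1: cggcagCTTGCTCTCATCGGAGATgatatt
Bid: agacatCTCGCCCAAATAGGCGATgagatg
Bad: cgtgagCTCCGAAGGATGAGCGATgagttt
Bcl2l11: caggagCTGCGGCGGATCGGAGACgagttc

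These windows of 30 bases come from the coding transcripts of an annotation on NCBIM37, and each lay within 1 coding exon and matched the genome of that build. Among the survival genes, Bcl2l1 has its window at chr2:152655436-152655465 (minus strand), Bcl2l2 at chr14:55503348-55503377 (plus) and Mcl1 at chr3:95463353-95463382 (plus). For the pore formers the places are chr7:52721370-52721399 (minus) in Bax and chr17:27159479-27159508 (minus) in Bak1. Bid has it at chr6:120847310-120847339 (minus), Bad at chr19:7025276-7025305 (plus) and Bcl2l11 at chr2:127972880-127972909 (plus). The window of Bcl2l2 shared 21 of its 30 bases with that of Bcl2l1, the most of the other 7, and that of Bax 12, the fewest. Of 5 complete coding transcripts of Bcl2l11, 4 held the segment, and of 4 of Bcl2l2, 3 matched the wider search. The gene-level counts cannot tell the transcripts of a gene apart. The residues asparagine, tryptophan, glycine and arginine in a row form the core of the BH1 region of several multidomain members. They were found in Bcl2l1, Bcl2l2, Mcl1 and Bax and in 0.112% of the 21463 genes. Bak1, also a pore former, and the BH3-only genes lacked them.

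Per kilobase of exon, Bcl2l1 was the most abundant member. In the controls it had 127 ± 38.5 CPM per kilobase (SD, n = 2), followed by Mcl1 with 82.2 ± 18.7, Bax with 39.0 ± 4.63 and Bak1 with 12.6 ± 2.47. Below these came the BH3-only genes Bad (6.62 ± 0.172), Bid (5.34 ± 0.110) and Bcl2l11 (2.1 ± 0.128), then Bcl2l2 (1.93 ± 1.10) and Pmaip1 (0.463 ± 0.113). Neighbours in this order did not overlap between the 2 control libraries, except Bcl2l11 and Bcl2l2. Among the 9537 genes with a length, Bcl2l1 lay between percentiles 94.9 and 96.8 in the 4 libraries, and Pmaip1 between percentiles 6.83 and 21.4. In the KO libraries Bcl2l1 stayed first at 138 ± 10.5 CPM per kilobase, while Mcl1 (55.0 ± 24.3) and Bax (55.6 ± 12.1) had overlapping values. Which transcripts are used sets these lengths: with the longest transcript in place of all exons the control level of Bcl2l1 was 248.3 CPM per kilobase, and the order of the 9 genes in the controls was the same.

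No member passed edgeR's quasi-likelihood test at an adjusted p below 0.05, where 0.103% of all genes did. None had an unadjusted p below 0.05 either, against 11.9% of all genes. By limma-voom, DESeq2 and the likelihood ratio test of edgeR 0 members were called, where 8, 374 and 349 of all 10716 genes were. At an unadjusted p below 0.05 these tests had 0, 1 and 0 members, and 1175, 1559 and 1479 of all genes. The median log2 fold change of the 9 was 0.04, beside -0.0008 over all genes. In 5 of the 9 the groups did not overlap, against 54% of all genes. These 5 were Bcl2l2, Bax and Pmaip1, with both KO libraries above both controls (27.4% of all genes), and Bak1 and Bad, with both below (26.7% of all genes). The distance from the mean of the controls was larger in KO1 than in KO2 for 8 of the 9 members. Without KO2 3 members were called (2 higher, 1 lower), where 32.6% of all genes were.

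**Figure D1:**
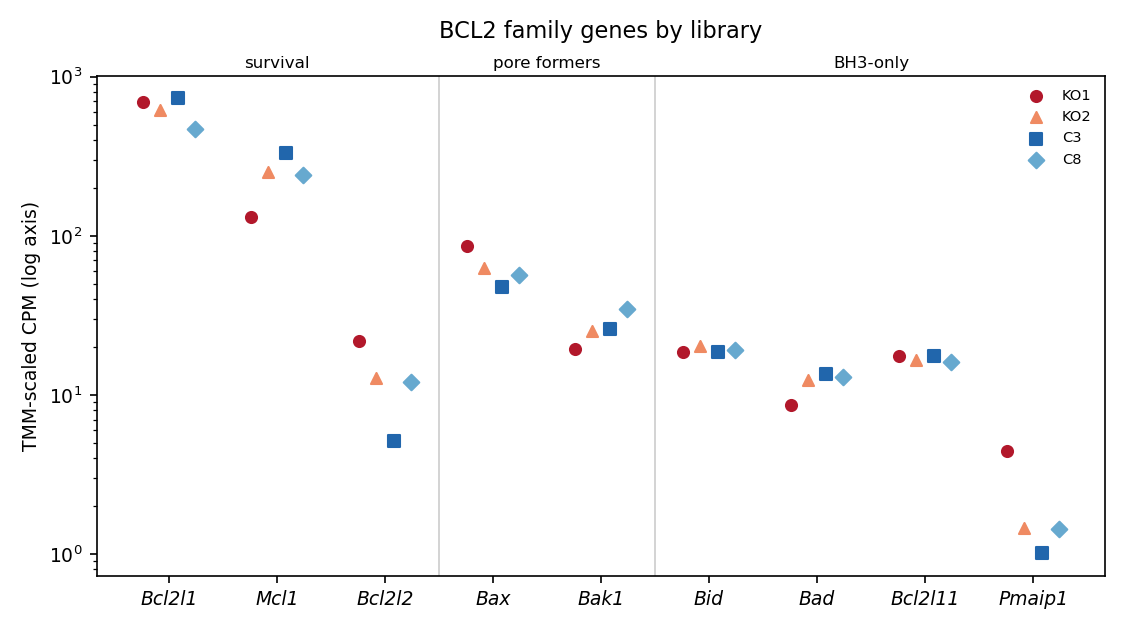
Normalised read counts (TMM-scaled CPM, log axis) of the 9 measured BCL2 family genes, 1 point per library, ordered by role. Bid and Bcl2l11 hardly differ between the 4 libraries, while for Mcl1, Bcl2l2, Bax, Bak1, Bad and Pmaip1 KO1 lies at the far end of the 4 points.

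Among the survival genes, Bcl2l1 (ENSMUSG00000007659, chromosome 2, 152593052 to 152657464, minus strand) had 689 and 618 CPM in KO1 and KO2 and 729 and 471 CPM in C3 and C8. Both KO values lay between the 2 controls. Its log2 fold change came to 0.12 (SE 0.28, 95% interval -0.57 to 0.82, edgeR adjusted p = 0.829), and it was -0.17 without C8.

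Mcl1 (ENSMUSG00000038612, chromosome 3, 95462643 to 95467099, plus strand), whose short-lived protein is known to follow changes in synthesis quickly, had 132 and 252 CPM against 333 and 240 CPM in the controls. KO1 was the lowest of the 4 libraries and KO2 lay between the controls, so the groups overlapped. On the log2 scale the fold change was -0.58 (SE 0.35, 95% interval -1.45 to 0.29, edgeR adjusted p = 0.468). It was -1.13 without KO2 (edgeR adjusted p = 0.0143) and -0.19 without KO1, so the low value rests on 1 library. In that library the summed level of 7 (of 9) neutrophil and granulocyte precursor markers was 304.7 CPM, against 37.3 in KO2 and 41.1 and 45.3 in the controls. Their part in the result was not tested.

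Bcl2l2 (ENSMUSG00000089682, chromosome 14, 55502214 to 55507071, plus strand) had 21.7 and 12.8 CPM in KO1 and KO2, against 5.15 and 12.1 CPM in C3 and C8. The lower KO value and the higher control value were close together, and C3 was the lowest. The log2 fold change of 0.99 (SE 0.47, 95% interval -0.16 to 2.15, edgeR adjusted p = 0.433) was 0.51 without C3 and 1.73 without C8. The annotation places a second coding gene, Gm20521, on the same strand with 594 exonic bases in common, and how shared reads were counted is not stated.

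The 2 pore formers leaned opposite ways, and neither passed. Bax (ENSMUSG00000003873, chromosome 7, 52717065 to 52722268, minus strand) had 85.9 and 63.0 CPM in KO1 and KO2, against 47.9 and 56.7 CPM in C3 and C8, with no overlap between groups. The fitted log2 fold change of Bax was 0.51 (SE 0.23, 95% interval -0.05 to 1.07, edgeR adjusted p = 0.433), at percentile 81.3 of all genes. Without KO2 it was 0.70 (edgeR adjusted p = 0.0148) and without KO1 it was 0.27. Bak1 (ENSMUSG00000057789, chromosome 17, 27156755 to 27165954, minus strand) had 19.5 and 25.04 CPM against 26.1 and 34.5 CPM in the controls. Again the groups did not overlap, with KO2 close to C3. The log2 fold change of Bak1 was -0.44 (SE 0.25, 95% interval -1.06 to 0.17, edgeR adjusted p = 0.456), and -0.24 to -0.64 with 1 library left out. Exons of Ggnbp1 on the other strand cover 357 bases of the Bak1 exons, and the strand of the counting is not stated.

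Of the BH3-only genes, Bid and Bcl2l11 were the steadiest members. Bid (ENSMUSG00000004446, chromosome 6, 120841948 to 120866871, minus strand), whose protein links death receptors to the mitochondrion once cut by caspase-8, had 18.7 and 20.2 CPM in KO1 and KO2, against 18.7 and 19.2 CPM in C3 and C8. Bcl2l11 (ENSMUSG00000027381, chromosome 2, 127951774 to 127988283, plus strand), the gene of BIM, had 17.5 and 16.5 CPM against 17.5 and 16.1 CPM. In both genes the groups overlapped and the 4 values stayed close together, at 484 to 910 counts per library. The log2 fold changes were 0.04 for Bid (SE 0.21, 95% interval -0.48 to 0.55, edgeR adjusted p = 0.936) and 0.02 for Bcl2l11 (SE 0.21, 95% interval -0.51 to 0.54, edgeR adjusted p = 0.972), and without library scaling they were -0.029 and -0.048, so neither has a direction. Exons of Bcl2l13 on the other strand cover 628 bases of the Bid exons, and KO1 and KO2 were both above C3 and C8 for Bcl2l13.

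Bad (ENSMUSG00000024959, chromosome 19, 7016351 to 7026388, plus strand), whose protein is held inactive by survival kinases, had 8.68 and 12.3 CPM in KO1 and KO2, against 13.5 and 13.0 CPM in C3 and C8. KO1 was the lowest and KO2 was just under both controls. The log2 fold change of -0.34 (SE 0.27, 95% interval -0.99 to 0.32, edgeR adjusted p = 0.540) was -0.11 without KO1. Exons of Gpr137 on the other strand cover 517 bases of the Bad exons.

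Pmaip1 (ENSMUSG00000024521, chromosome 18, 66618258 to 66625204, plus strand), the gene of NOXA, which binds MCL1 and is a target of p53 and of the integrated stress response, was the least abundant member. It had 137 and 56 counts in KO1 and KO2, against 28 and 68 in C3 and C8. These are 4.47 and 1.45 CPM against 1.02 and 1.44 CPM. The 95% Poisson intervals, which cover counting error only, ran from 3.75 to 5.28 CPM in KO1 and from 1.10 to 1.88 CPM in KO2, and the latter covered the value of C8. KO1 alone was thus above the rest beyond counting error. Its fitted log2 fold change was 1.25 (SE 0.61, 95% interval -0.23 to 2.74, edgeR adjusted p = 0.433), 1.84 without KO2 (edgeR adjusted p = 0.00735) and 0.23 without KO1.

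**Figure D2:**
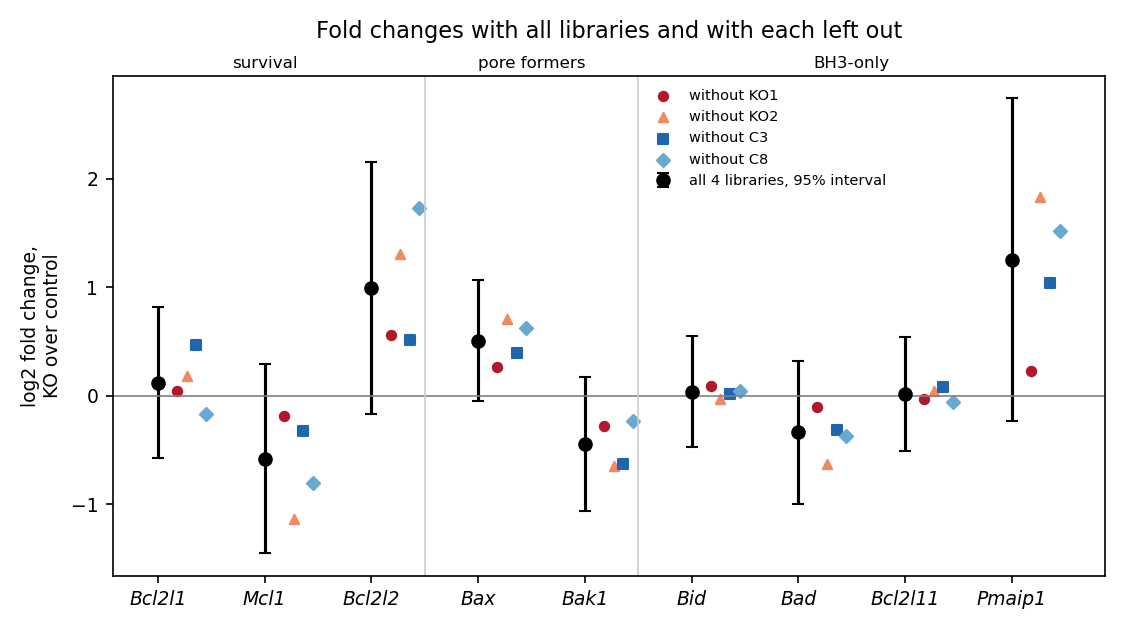
Log2 fold changes of the 9 genes (vertical axis, KO over control) with all 4 libraries and their 95% intervals (black), and with each library left out (coloured points). Every black interval includes 0, and the fold changes of Mcl1, Bax, Bad and Pmaip1 are nearest 0 without KO1.

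In the authors' deposited table, with the sign turned to knockout over wild type, the log2 fold changes were 0.98 for Bcl2l2, -0.66 for Mcl1, 0.49 for Bax, -0.45 for Bak1 and 0.99 for Pmaip1. The adjusted p-values of the 9 in the authors' deposited table ran from 0.442 (Bax and Bcl2l2) to 0.965 (Bcl2l11). For all 9, limma-voom on the same counts gave these values again (limma-voom adjusted p of 0.442 for Bax and 0.965 for Bcl2l11). The deposited values and the limma-voom result above are therefore not separate results.

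Ratios of 2 genes within a library do not depend on how libraries are scaled. The ratio of Bcl2l1 to Mcl1, as levels per kilobase, was 3.84 and 1.81 in KO1 and KO2, against 1.61 and 1.44 in C3 and C8. Both were above the controls, KO2 by little. The ratio of Bax to Bak1 was 7.90 and 4.52 in KO1 and KO2, against 3.30 and 2.95 in C3 and C8. The gap between KO2 and C3 was wider than the gap between the controls and narrower than the gap between KO1 and KO2. Bax made up 88.8% and 81.9% of the summed level of both pore formers in KO1 and KO2, against 76.7% and 74.7% in the controls. These pairs were picked after their values were seen, and 2 against 2 libraries cannot reach an exact permutation p below 0.333, so no test is given.

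**Figure D3:**
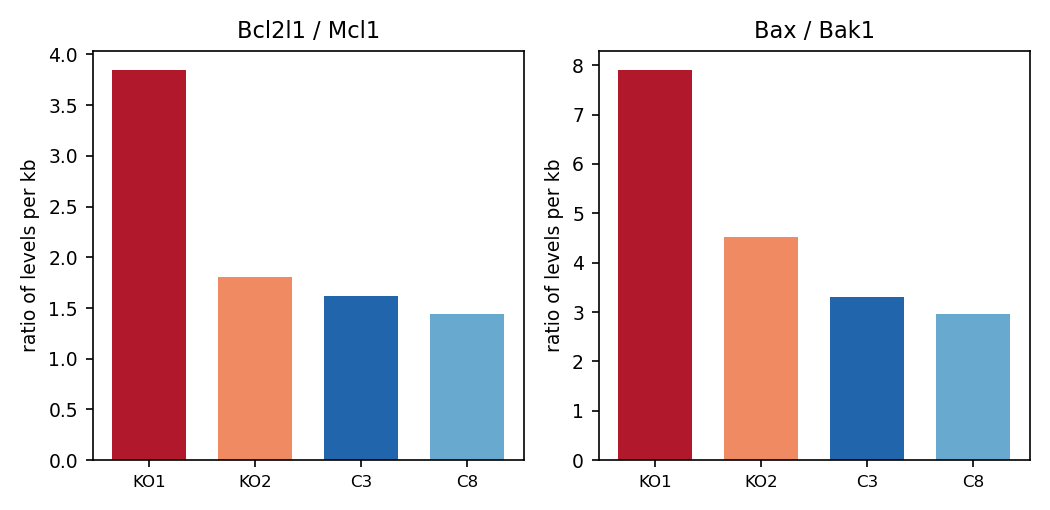
Ratio of levels per kilobase of Bcl2l1 to Mcl1 (left) and of Bax to Bak1 (right), 1 bar per library from 0. Both ratios are highest in KO1 (3.84 and 7.90) and lowest in C8 (1.44 and 2.95).

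Summed by role, the 3 measured survival genes had 188 and 206 CPM per kilobase in KO1 and KO2, against 251 and 171 in C3 and C8, which overlapped. The pore formers had 72.2 and 57.4 against 46.6 and 56.6 CPM per kilobase, with KO2 close to C8. The 4 BH3-only genes had 13.5 and 14.4 against 14.6 and 14.5 CPM per kilobase. The ratio of the survival sum to the pore former sum was 2.60 and 3.58 in KO1 and KO2, against 5.38 and 3.02 in C3 and C8, so the balance of the 2 groups overlapped.

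The members were then set beside relatives of the family outside the 10. Of 17 such genes 8 were in the table, and Bcl2a1a, Bcl2a1b, Bcl2a1c, Bcl2a1d, Bcl2l10, Bok, Bik, Hrk and Bcl2l14 were not. None of the 8 passed edgeR's quasi-likelihood test, while 3 had an unadjusted p below 0.05, all higher, against 11.9% of all genes (1052 of 10716 higher and 223 lower), and the median log2 fold change was 0.23. Leaving out a KO library changed this, with 1 gene passing without KO1 (143 of all 10716 genes) and 3 without KO2 (32.6% of all genes), all higher. The share without KO2 was near that of all genes. Bbc3, the gene of the BH3-only protein PUMA, had 114 and 34.7 CPM in KO1 and KO2, against 10.5 and 10.8 CPM in C3 and C8. Both KO values were far above both controls. Bbc3 had a log2 fold change of 2.80 (SE 0.56, edgeR adjusted p = 0.219), and over the alternatives its adjusted p ran from 2.83e-06 (DESeq2) to 0.880, with a log2 fold change of 1.71 without KO1.

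Bnip3, a mitochondrial membrane protein gene known to be induced by hypoxia, had 415 and 104 CPM in KO1 and KO2, against 14.6 and 33.5 CPM in C3 and C8. Bnip3 had a fold change of 3.43 on the log2 scale (SE 0.75, edgeR adjusted p = 0.260), with adjusted p-values from 6.54e-07 (DESeq2) to 0.9999 over the alternatives. Bcl2l13, a mitophagy receptor gene, had 488 and 325 CPM against 255 and 255 CPM and a log2 fold change of 0.67 (SE 0.26, edgeR adjusted p = 0.419). Bnip3 and Bbc3 passed with DESeq2 and with edgeR's likelihood ratio test, where the 9 members did not. These tests called 374 and 349 of all 10716 genes. At such shares 0 calls among 9 genes say little about the members.

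Genes acting beside or after the pore were 25 in all, and all were in the table. None passed edgeR's quasi-likelihood test, and 1 had an unadjusted p below 0.05 (11.9% of all genes). Their log2 fold changes were below 0 in 20 and above 0 in 5, beside 5363 below 0 among all 10716 genes, with a median of -0.23. Against the mean of the controls the median was -0.33 in KO1 and -0.14 in KO2. In 12 both KO libraries were below both controls (26.7% of all genes) and in 4 above (27.4%). Without KO2 8 passed (1 higher, 7 lower), a share near the 32.6% of all genes called there. The 1 was Cycs, which encodes cytochrome c, with 78.4 and 99.7 CPM in KO1 and KO2, against 130 and 143 CPM in C3 and C8 (log2 fold change -0.61, SE 0.21, edgeR adjusted p = 0.391). Birc2, an inhibitor of apoptosis gene, had 81.7 and 44.9 against 40.5 and 34.8 CPM. The nuclease gene Endog was near the floor of the table, with 0.489 and 0.933 against 1.196 and 1.61 CPM. Endog was below 1 CPM in both KO libraries, so it entered the table only through the controls. It is counted among the 20 and the 12 given here, and its lower KO values are partly built in.

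On the death receptor route, which reaches the mitochondrion through BID, 9 of 13 genes were in the table and Fas, Fasl, Tnf and Tnfsf10 were not. None passed edgeR's quasi-likelihood test or had an unadjusted p below 0.05, and the median log2 fold change was 0.07. Without KO2 5 passed (2 higher, 3 lower), where 32.6% of all genes did. In 5 of the 9 the groups did not overlap, a share near the 54% of all genes. The TRAIL receptor gene Tnfrsf10b had 4.40 and 2.05 CPM in KO1 and KO2, against 1.45 and 1.56 CPM in C3 and C8. The adaptor gene Fadd had 4.57 and 8.47 against 11.6 and 10.2 CPM, and the receptor gene Tnfrsf1a 2.74 and 2.18 against 1.74 and 1.46 CPM. These 3 had the smallest p of the list and are among the 5 without overlap.

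All 22 regulators of the members were in the table, and none passed edgeR's quasi-likelihood test, with 2 at an unadjusted p below 0.05 (11.9% of all genes) and a median log2 fold change of -0.11. Without KO2 10 passed (4 higher, 6 lower), where 32.6% of all genes did. Without KO1 or C3 1 did, beside 143 and 41 of all 10716 genes. Both KO libraries were above both controls in 4 and below in 5, and 13 overlapped, whereas 54% of all genes did not overlap. Ddit3, whose product CHOP is a stress transcription factor known to act on BH3-only genes, had 140 and 90.2 CPM in KO1 and KO2, against 38.3 and 30.8 CPM in C3 and C8. Ddit3 differed by 1.74 on the log2 scale (SE 0.28, edgeR adjusted p = 0.136), and 7 of the 14 alternatives called it. Pim1, a STAT5-induced survival kinase gene, had 1951 and 1048 against 570 and 724 CPM (log2 fold change 1.21, SE 0.36, edgeR adjusted p = 0.356). Foxo3, a transcription factor gene known for activating Bcl2l11, had 564 and 318 against 294 and 236 CPM. These 3 had the smallest p of the list, and all are among the 4 with both KO libraries above both controls.

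**Figure D4:**
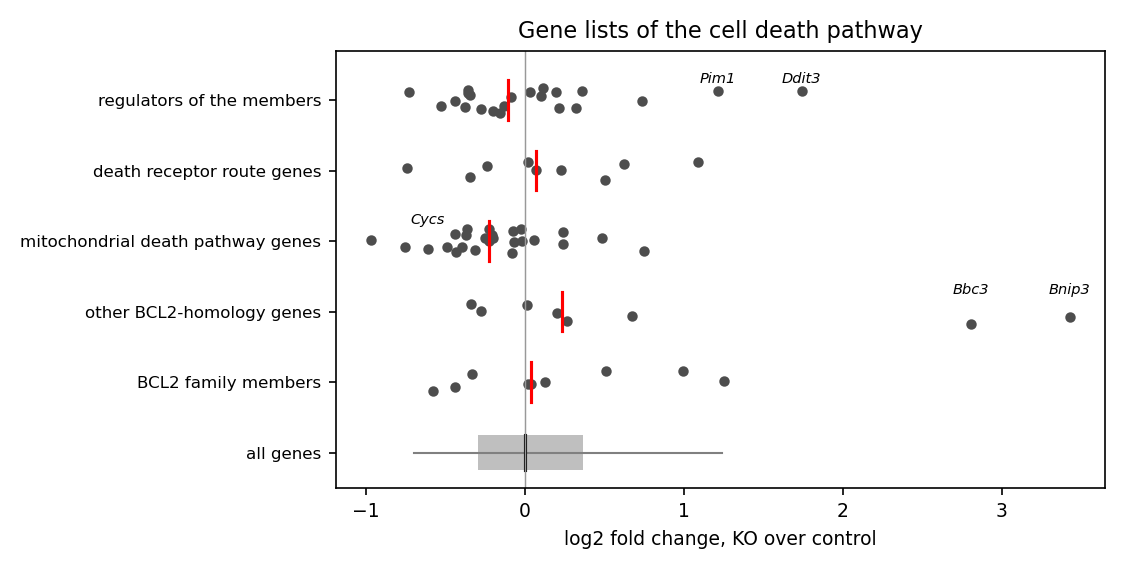
Log2 fold changes (horizontal axis, KO over control) of the BCL2 family members and the 4 related lists, 1 point per gene with the list median in red, above the distribution over all genes (box from the 25th to the 75th percentile, line from the 5th to the 95th, black median). Bnip3 (3.43) and Bbc3 (2.80), which are relatives outside the 10, lie beyond every member.

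Markers of other cells were low in these libraries beside the erythroid ones, and their part in the values above was not tested. Of 13 macrophage markers 11 were in the table, and none passed edgeR's quasi-likelihood test. In 7 of the 11 both KO libraries were below both controls (26.7% of all genes) and in 0 above (27.4%). The log2 fold change was below 0 in every one but Lyz2. Of these 7, Marco, Vcam1 and C1qa had log2 fold changes of -2.72, -2.70 and -2.33, and they and Cd5l were chosen for naming after their values were seen. Cd5l had 0.163 and 0.959 CPM in KO1 and KO2, against 13.6 and 4.99 CPM in C3 and C8. Vcam1, C1qa and Cd5l were below 1 CPM in both KO libraries, so they entered the table only through the controls. Their lower KO values are thus partly built in. The summed level of the 11 was 51.8 and 29.1 CPM in KO1 and KO2, against 75.7 and 41.7 CPM in the controls, and Lyz2 alone made up 43.1 CPM of it in KO1. The summed level of all 5 endothelial markers was 27.7 and 32.2 against 14.0 and 12.5 CPM. The megakaryocyte marker Itga2b had 103 and 59.3 against 19.8 and 51.0 CPM. The progenitor marker Kit had 67.6 and 36.5 against 36.5 and 30.8 CPM, with KO1 apart. Of 9 hepatoblast markers 7 were measured, and they summed to 58.0 and 67.4 against 124 and 49.1 CPM. The most abundant marker of each list was Hba-a1 for erythroid cells (28231 to 43360 CPM), Lyz2 for macrophages (8.32 to 10.9 CPM outside KO1, and with a log2 fold change of 1.32 against the direction of its list), S100a9 for neutrophils (113 CPM in KO1 and 11.7 to 15.1 in the others), Itga2b, Afp, Kit and Kdr. No measured marker was at 0 counts in any library. In sorted bulk cells a smaller share of cells with a transcript and less of it per cell cannot be told apart.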

How the data were processed

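The authors deposited raw counts per gene, 1 column per library, in a table with their log2 fold change (coded wild type minus knockout), p-value and adjusted p-value. The 4 columns of normalised values in it were not used. Per the submitters' processing notes, which give no roles, the builds were mm9 and NCBIM37 and the tools TopHat2 2.0.8, BWA 0.6.2, GATK, HTSeq, limma, edgeR, Cufflinks, Bowtie2 2.1.0.0, Trimmomatic 0.30 and SAMtools 0.1.19. Strand and the handling of shared reads are not stated in the sources used here.

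Libraries were grouped by title. All 10716 genes were fitted with edgeR 4.0.16 in R 4.3.3 (filterByExpr, which removed 0 genes, TMM, glmQLFit with robust=TRUE and legacy=TRUE, two-sided quasi-likelihood F test, Benjamini-Hochberg over all genes, threshold 0.05, 2 residual degrees of freedom). The fit was also run on simulated data, with changes larger than those of the members, and the outcome is not reported here. That run does not show how well changes of the members' size would be found. CPM are of the TMM-scaled library. Each SE of the edgeR fit was worked back from its test, as the absolute log2 fold change over the square root of the F statistic. The 95% intervals use that SE with the t distribution on the total degrees of freedom of the fit. The 2 libraries of each group differed beyond counting noise (chi-square per degree of freedom 203 and 88.8). Lengths and positions came from an NCBIM37 annotation, with names matched by Ensembl identifier (9537 genes). Coding sequences were translated with Biopython 1.88.

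The named genes are all members, Adar, and the 3 genes with the smallest p of each related list, with the most abundant markers. The members and lists were chosen with earlier results of these data known, and no test over a list is given. The summed levels of 2 marker lists are not reported here. Alternatives were RLE scaling, no library scaling, other filters, DESeq2 1.42.0, limma-voom (limma 3.58.1) and the likelihood ratio test. Further ones were robust=FALSE, legacy=FALSE, labelled sex as a covariate, and each library left out in turn. Y-linked counts contradicted the labelled sex in 3 of 4 libraries, so that covariate does not adjust for sex as these counts give it.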

Additional observations from a re-analysis of the deposited data

How the results depend on the processing

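The 9 members had 126 fold changes over 14 alternatives, of which 117 kept their direction and did not pass, 3 kept it and passed, and 6 changed sign. Those that passed were Bax, Mcl1 and Pmaip1 without KO2, which leaves 1 library in that group, assumed to vary like the controls. The sign changes were Bcl2l11 (-0.048) and Bid (-0.029) when libraries were not scaled, and 4 with 1 library left out, where Bcl2l11 ranged from -0.055 to 0.080 (below 0 without C8 or KO1), Bid from -0.033 to 0.091 (below 0 without KO2) and Bcl2l1 from -0.17 to 0.47 (below 0 without C8). Genes called in the whole table numbered 11, and 87 without library scaling, 374 with DESeq2, 349 with the likelihood ratio test, 41 with sex as a covariate and from 27 to 3492 with 1 library left out. With 1 library left out the members called ranged from 0 to 3, other BCL2-homology genes from 0 to 3, mitochondrial death pathway genes from 0 to 8, death receptor route genes from 0 to 5 and regulators from 0 to 10, each highest without KO2. DESeq2 and the likelihood ratio test each called 2 other BCL2-homology genes and 2 regulators, and 1 regulator was called without library scaling and with sex as a covariate. The cause of these differences was not tested. No paired analysis was possible because the replicate numbers of the groups are not shared. With the longest transcript as the length, 5 of the 9 control levels per kilobase moved by more than 1 SD. At 28 to 137 counts, Pmaip1 is the member that depth limits most.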
